A study of Homo sapiens with 3 samples.

Results

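The genes described are 44 genes of epithelial architecture, made up of 15 keratins, 11 desmosome genes, 2 catenins and 16 genes of tight junctions and cell polarity. They were taken by gene symbol from the 27024 genes counted by RNA-seq in 22Rv1 cells, a human prostate carcinoma cell line obtained from ATCC. The libraries analysed were the 3 WT libraries, from untreated cells grown in RPMI1640 with serum, which carry an intact prostate cancer risk enhancer, with the non-risk G allele of its variant, that the study deleted or edited in other cells. The KO and MUT libraries of the study were not analysed here, so no genotype was compared, and what was compared is genes with genes and library with library. The WT libraries may come from separate clones or from separate cultures, and the sources used here do not settle which, so the spread between them may be partly technical. A library held between 35675670 and 38629080 reads assigned to the counted genes, after repeated rows were merged. Levels are given as normalized counts, which are reads per gene divided by a size factor of 1.18 to 1.27 per library. Where different genes are compared, the normalized counts were divided by the length of the gene's canonical transcript and are given per kilobase.

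Keratins are the intermediate filament proteins of epithelial cells. They assemble as obligate pairs of an acidic type I and a basic type II chain, and in the prostate KRT8 and KRT18 mark luminal cells, whereas KRT5 and KRT14 mark the basal layer. Desmosomes anchor these filaments at cell contacts: desmogleins and desmocollins bridge the membranes, plakoglobin and plakophilins bind their tails, and desmoplakin links them to keratin. Tight junctions seal the space between neighbouring cells with claudins and other membrane proteins, which bind scaffold proteins under the membrane.

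The label of the cells was first checked against cell type markers. All 6 prostate luminal markers examined (HOXB13, KLK2, KLK3, TMPRSS2, FOLH1 and FOXA1) were at 1 CPM (the reads of a gene scaled to a fixed library size) or more in each library, with a summed level of 32664 to 33672 normalized counts. Of 5 prostate basal markers, CDH3 and ITGA6 passed that level, NGFR and ITGB4 did not, and TP63, the transcription factor that defines basal cells, had 0 reads in all 3 libraries. Stromal markers passed in 3 of 7 cases (COL1A1, LUM and ACTA2), with a summed level of 489 to 581 normalized counts. Of 5 immune markers only CD68 passed, PTPRC had 1, 0 and 1 reads and CD3E had none. None of 3 endothelial markers with a row passed. In bulk RNA, fewer cells of a type and less RNA per cell cannot be told apart.

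Of the 44 genes, 31 were expressed, meaning at least 1 CPM in each of the 3 libraries. Among all counted genes 47.7% were, and among protein-coding genes 64.0%. The expressed genes comprised 6 of 15 keratins, 11 of 13 desmosome and catenin genes and 14 of 16 tight junction and polarity genes. The other 13 were 9 keratins (KRT5, KRT6A, KRT13, KRT14, KRT15, KRT16, KRT17, KRT20 and KRT23), the desmosomal cadherins DSG3 and DSC3, and the claudins CLDN8 and CLDN18. The expressed member nearest the limit was KRT80, with 69, 60 and 70 reads, and the nearest below it was KRT15, with 31, 16 and 21. Among these 13, 7 had 0 reads in every library, which for a library allows up to 3 reads, or 2.36 to 2.54 normalized counts. All limits of this kind cover counting error only.

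The median level of the 31 expressed members was 438 normalized counts per kilobase, beside 317 for all expressed genes. Of the 31, 19 stood above the median expressed gene, 7 in the top 10% and 4 in the bottom 10%. The 7 were KRT8, KRT18, KRT19, CLDN7, CTNNA1, CLDN4 and PKP3, and the 4 were KRT80, PPL, CLDN1 and DSC2. Keratins held the highest and the lowest mean among the expressed members, although the range of KRT80 overlapped that of PPL.

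**Figure D1:**
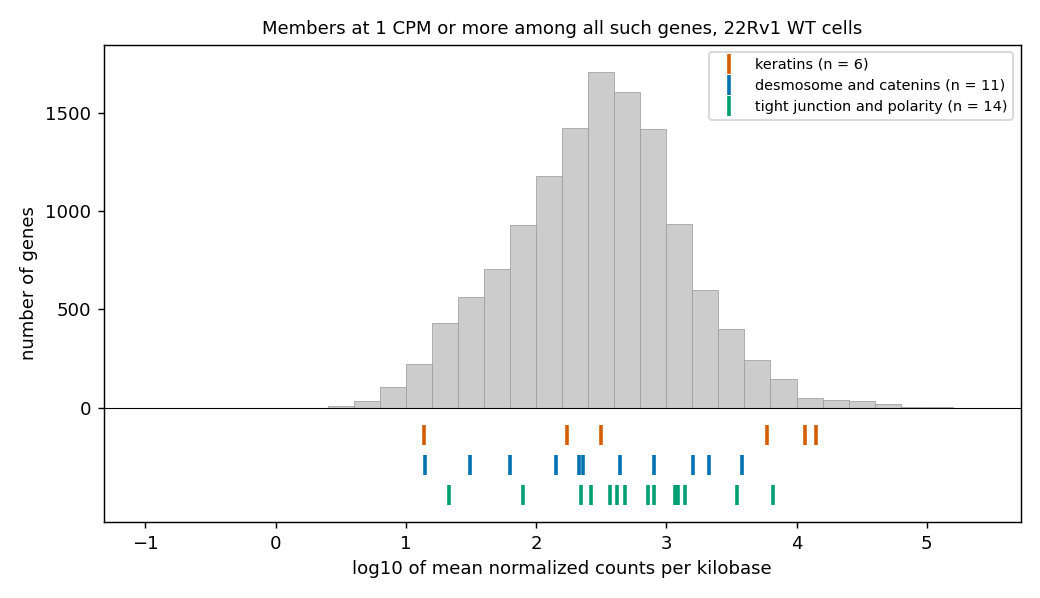
Distribution of the mean level of the 12821 expressed genes with a transcript length in 22Rv1 WT cells, on a log10 scale of normalized counts per kilobase. Coloured ticks under the bars mark the 31 expressed members by family, and the 3 rightmost keratin ticks are KRT19, KRT18 and KRT8.

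Which keratins the cells carry was the main comparison. The luminal keratins KRT8 and KRT18 were among the most abundant RNAs of these cells, and of the basal keratins KRT5, KRT14, KRT15 and KRT17 only KRT15 had any read. KRT8 (ENSG00000170421, the type II chain of simple epithelia, GRCh37 chr12:53290971-53343738, minus strand) measured 25006.3, 24460.0 and 26016.0 normalized counts. Its type I partner KRT18 (chr12:53342655-53346690, plus strand) measured 15764.1, 15660.7 and 18051.2 normalized counts. Both were highest in replicate 3 and lowest in replicate 2.

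Per kilobase, KRT8 reached 14104 ± 442 and KRT18 11672 ± 956 normalized counts (SD, n = 3), at percentiles 99.1 and 98.9 of all expressed genes. The KRT8 to KRT18 ratio was 1.21 ± 0.0615, and the ranges of the 2 genes did not overlap. That order rests on the length used: with the union of all annotated exons as the length, KRT8 stood at 3657 and KRT18 at 5374. The genes are neighbours on opposite strands, and 26.5% of the KRT18 transcript lies over KRT8 exons. Whether the counting used strand is not given in the sources used here, and the part of this overlap in the values was not tested.

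The basal keratins stood at the other end of the scale. KRT15, a type I keratin of basal cells, measured 24.5, 13.5 and 16.5 normalized counts, or 10.6 ± 3.32 per kilobase (SD, n = 3). KRT5, KRT14 and KRT17 had 0 reads in all 3 libraries. The basal sum thus came from KRT15 alone.

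Summed per kilobase, KRT8 and KRT18 gave 25173, 24794 and 27358 normalized counts in replicates 1 to 3, and the 4 basal keratins gave 14.3, 7.89 and 9.64. Luminal over basal keratins was 1759-fold, 3144-fold and 2839-fold, a log2 ratio of 11.29 ± 0.45 (SD, n = 3). The difference exceeded the spread between libraries in every library. With 3 libraries of 1 group an exact two-sided test cannot reach a p below 0.25, and none is given. Against the basal keratins without reads the fold is a lower bound set by 3 reads per library: KRT8 was at least 12087-fold higher than KRT5 and KRT18 at least 7142-fold higher than KRT14 per kilobase, or at least 5787-fold and 4533-fold with union exon lengths. With the basal list cut to KRT5 and KRT14, at 3 reads each, the log2 ratio was at least 13.17 in every library. When KRT6A, KRT10, KRT13 and KRT16, from outside the basal list, were added to the 4 basal keratins, the log2 ratio was 7.14. In that wider list KRT10 stood at 174 and KRT15 at 10.6 normalized counts per kilobase.

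KRT19 ranked next among the keratins. A small type I keratin without a tail domain, it measured 8320.2, 7810.0 and 8746.5 normalized counts, or 5966 ± 337 per kilobase (SD, n = 3, percentile 97.5). KRT18 stood 1.96 ± 0.0845 times above it per kilobase. KRT7, a type II keratin of ducts and glands, measured 497.7, 504.4 and 536.9 normalized counts, or 316 ± 12.9 per kilobase. KRT7 thus stood at the middle of the expressed genes (percentile 50.1), and KRT8 exceeded it 44.7 ± 0.931 times, or 28.5 ± 0.594 times with union exon lengths. The remaining simple keratins were near or at 0: KRT20, of the intestinal and urothelial epithelium, had 1, 0 and 0 reads and KRT23 none.

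Of the suprabasal, stress and other keratins, KRT10 and KRT80 were expressed. KRT10, the type I keratin of differentiating epidermis, measured 395.8, 435.8 and 285.8 normalized counts, or 174 ± 36.2 per kilobase (SD, n = 3), with replicate 3 the lowest. KRT80 measured 54.5, 50.8 and 55.1 normalized counts, or 13.8 ± 0.60 per kilobase. KRT13, of stratified mucosa, had 0, 0 and 5 reads, while KRT6A and KRT16, the keratins of stressed and healing epidermis, had none.

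Within the 15 keratins, KRT8 made up 43.8 ± 0.90% of the summed level per kilobase, KRT18 36.1 ± 1.14% and KRT19 18.5 ± 0.37% (SD, n = 3). With union exon lengths KRT18 led with 41.6%, followed by KRT8 with 28.4% and KRT19 with 27.5%. Summed over the type I and type II members, the level per kilobase was 17823 ± 1223 for the 10 type I genes and 14433 ± 454 for the 5 type II genes. The type I to type II ratio was 1.23 ± 0.0461. It was 2.39 with union exon lengths and 0.978 with no division by length, so its direction depends on the length used.

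**Figure D2:**
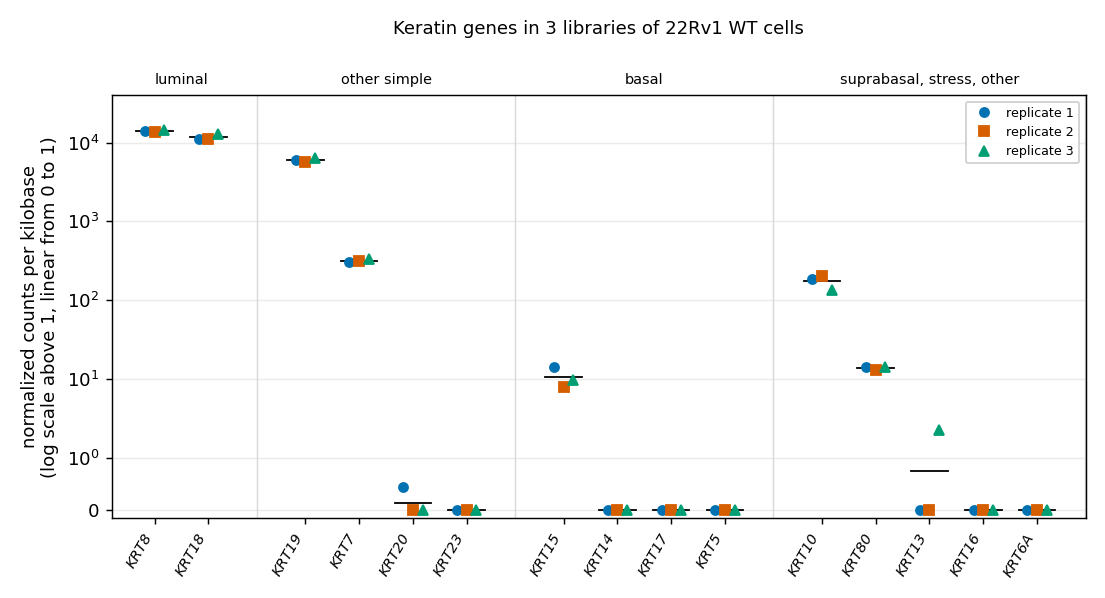
Level of each of the 15 keratin genes in the 3 WT libraries, in normalized counts per kilobase on an axis that is logarithmic above 1 and linear from 0 to 1. Symbols mark replicates and the black bar the mean: KRT8 (mean 14104) and KRT18 (11672) are highest, KRT15 has a mean of 10.6, and KRT5, KRT14 and KRT17 are at 0.

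The keratin genes sit in a pair of gene clusters, which gives their position as a further view. On GRCh37 the type II cluster with KRT18 (chr12:52562780-53346690) held 27 keratin genes over 784 kb. Only 4 of these were expressed, namely KRT80 and KRT7 at one end and KRT8 and KRT18 at the other, and 21 had 0 reads in all libraries. The type I cluster (chr17:38810917-39781094) held 28 keratin genes over 970 kb, of which KRT10 and KRT19 were expressed and 21 had 0 reads. KRT19 (chr17:39679869-39684560) lies next to KRT15 (chr17:39669997-39678781), and the level per kilobase was 595 ± 156 times higher for KRT19 (SD, n = 3), or 1233 ± 323 times with union exon lengths. Of 40 protein-coding keratin genes outside the list of 15, none was expressed, 36 had 0 reads, and the highest was the hair keratin KRT81, with 11, 3 and 6 reads.

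Desmosomal cadherins were represented by DSG2 and, at a lower level, DSC2. DSG2, the desmoglein of simple epithelia, measured 4565.0, 4689.9 and 4378.8 normalized counts, or 798 ± 27.5 per kilobase (SD, n = 3, percentile 75.5). DSC2, the widely expressed desmocollin, measured 389.5, 366.4 and 399.1 normalized counts, or 31.2 ± 1.36 per kilobase. DSG2 stood 25.6 ± 1.99 times above DSC2 per kilobase (15.6 ± 1.21 with union exon lengths) and held 96.2 ± 0.28% of the summed level of the 4 desmosomal cadherins. DSG3, the desmoglein of basal and stratified epithelia, had 0 reads, so that DSG2 was at least 1809-fold higher (at least 1086-fold with union exon lengths), and DSC3, its desmocollin counterpart, had 6, 0 and 0 reads.

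The 7 genes of the cadherin cluster span 560 kb (GRCh37 chr18:28569331-29128971), of which DSG2 and DSC2 were expressed and DSC1, DSG1 and DSG3 had 0 reads. The promoter windows of the 4 cadherins in the list are shown because genes in the same cluster ran from 0 reads to 798 normalized counts per kilobase. Each is 250 bases before to 50 bases after the gene start, from RefSeq on GRCh38.p14, written 5′ to 3′ on the strand of the gene, with each CG dinucleotide in capitals. The windows are DSG2 chr18:31497927-31498226 (plus strand), DSC2 chr18:31102372-31102671 (minus strand), DSG3 chr18:31447491-31447790 (plus strand) and DSC3 chr18:31042693-31042992 (minus strand).
DSG2: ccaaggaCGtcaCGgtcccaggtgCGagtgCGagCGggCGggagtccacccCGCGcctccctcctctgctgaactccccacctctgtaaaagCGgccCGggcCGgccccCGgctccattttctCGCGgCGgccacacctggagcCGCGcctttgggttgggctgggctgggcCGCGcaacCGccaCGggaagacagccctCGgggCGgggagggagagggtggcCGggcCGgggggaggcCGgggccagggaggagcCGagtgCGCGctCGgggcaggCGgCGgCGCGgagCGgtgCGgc
DSC2: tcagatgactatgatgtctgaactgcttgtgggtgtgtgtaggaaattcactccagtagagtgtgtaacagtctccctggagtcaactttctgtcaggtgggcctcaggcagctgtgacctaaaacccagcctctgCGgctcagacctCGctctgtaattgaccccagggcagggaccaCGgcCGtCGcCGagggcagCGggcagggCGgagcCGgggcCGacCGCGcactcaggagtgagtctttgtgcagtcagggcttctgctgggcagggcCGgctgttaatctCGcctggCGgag
DSG3: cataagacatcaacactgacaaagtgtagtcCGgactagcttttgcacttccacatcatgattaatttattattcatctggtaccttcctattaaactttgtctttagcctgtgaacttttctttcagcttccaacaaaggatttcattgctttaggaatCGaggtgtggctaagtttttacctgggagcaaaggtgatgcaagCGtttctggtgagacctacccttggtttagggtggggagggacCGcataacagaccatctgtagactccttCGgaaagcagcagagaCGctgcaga
DSC3: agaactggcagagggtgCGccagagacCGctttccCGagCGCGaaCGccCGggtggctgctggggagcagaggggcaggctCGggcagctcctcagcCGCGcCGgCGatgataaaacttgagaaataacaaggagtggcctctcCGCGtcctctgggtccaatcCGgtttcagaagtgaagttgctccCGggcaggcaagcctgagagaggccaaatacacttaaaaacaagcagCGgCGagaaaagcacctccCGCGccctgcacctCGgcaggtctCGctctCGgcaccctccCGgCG
The DSG2 window held 36 CG dinucleotides, DSC2 15, DSG3 6 and DSC3 25. DSG2 was highest and DSG3 lowest in both CG number and level, but DSC3 had more CG than DSC2 and next to no reads. A relation between number and level was not tested in these 4 genes.

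Promoter windows were matched for 24 of the 44 genes. In 19 expressed members the median was 24 CG (range 1 to 37), and in the 5 members that were not expressed (KRT5, KRT20, DSG3, DSC3 and CLDN18) it was 7. All expressed protein-coding genes with a window (n = 10008) had a median of 26 CG and the others (n = 5086) of 7, so the medians of the members were close to those of genes in general. The windows with the fewest CG among expressed members were those of KRT10 (1), KRT8 (2), CLDN4 (5) and CLDN7 (10), of which KRT8, CLDN7 and CLDN4 were in the top 10% of levels. The RefSeq start of KRT8 is not the start of the canonical transcript whose length is used here.

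On either strand, GGGCGG was present in the window of 15 of 19 expressed members (78.9%) and in 0 of the 5 others. Among expressed protein-coding genes 71.4% held it, among the others 36.1%, and among all 27305 windows 44.6%. TATAAA was found in 1 of 24 members, KRT10, and in 12.0% of all windows. CAGGTG was in 10 of 24 members and 20.6% of all windows, AACCGG in 5 and 7.23%, CCAAT in 8 and 35.7%, and TGANTCA in CLDN4 only and 7.76%. No string contains another, and a match is a description of the letters only.

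All 4 armadillo proteins of the desmosome were expressed, with PKP3 and JUP well above PKP2 and PKP1. PKP3, the plakophilin of simple and stratified epithelia, measured 6265.2, 5738.4 and 6015.5 normalized counts, or 2132 ± 93.5 per kilobase (SD, n = 3, percentile 91.2). JUP (plakoglobin), which binds desmosomal and classical cadherins, measured 5486.2, 5455.8 and 5791.1 normalized counts, or 1591 ± 52.9 per kilobase. The ranges of PKP3 and JUP did not overlap per kilobase.

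PKP2, the plakophilin also found in heart muscle, measured 930.7, 1053.6 and 747.9 normalized counts, or 215 ± 36.4 per kilobase (SD, n = 3), highest in replicate 2 and lowest in replicate 3. PKP1, the plakophilin of stratified epithelia, measured 339.7, 311.4 and 355.8 normalized counts, or 63.0 ± 4.22 per kilobase. PKP3 made up 88.4 ± 1.45% of the summed level per kilobase of PKP1, PKP2 and PKP3. PKP4, outside the list and not in that sum, stood at 431 ± 11.3 per kilobase, above PKP2 and PKP1. PKP3 exceeded PKP2 10.1 ± 1.95 times and PKP1 33.9 ± 1.67 times. With union exon lengths PKP3 exceeded PKP2 18.3 ± 3.52 times.

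The plakins were led by DSP (desmoplakin), the link between the desmosome and keratin. DSP measured 4337.4, 4404.7 and 3986.7 normalized counts, or 438 ± 23.1 per kilobase (SD, n = 3). EVPL (envoplakin), a cornified envelope precursor, measured 1530.4, 1486.9 and 1460.4 normalized counts, or 231 ± 5.46 per kilobase, and its partner PPL (periplakin) 72.7, 115.1 and 76.4, or 14.1 ± 3.76 per kilobase. DSP held 64.1 ± 0.69% of the plakin level, and EVPL exceeded PPL 17.1 ± 4.11 times, with PPL highest in replicate 2.

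Both catenins in the list were expressed, at unlike levels. CTNNA1 (alpha-catenin), which ties the cadherin complex to actin, measured 14086.0, 14067.2 and 14569.2 normalized counts, or 3794 ± 75.8 per kilobase (SD, n = 3, percentile 95.5). CTNND1 (p120-catenin), which keeps cadherins at the membrane, measured 935.4, 1020.6 and 908.5 normalized counts, or 143 ± 8.77 per kilobase. CTNNA1 stood 26.6 ± 2.01 times above CTNND1 per kilobase. The CTNND1 transcript shares 78.6% of its bases with exons of another gene on the same strand (ENSG00000288534), which has a row of its own with 4, 7 and 9 reads, so the level of CTNND1 is uncertain, and the part of this overlap in it was not tested.

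**Figure D3:**
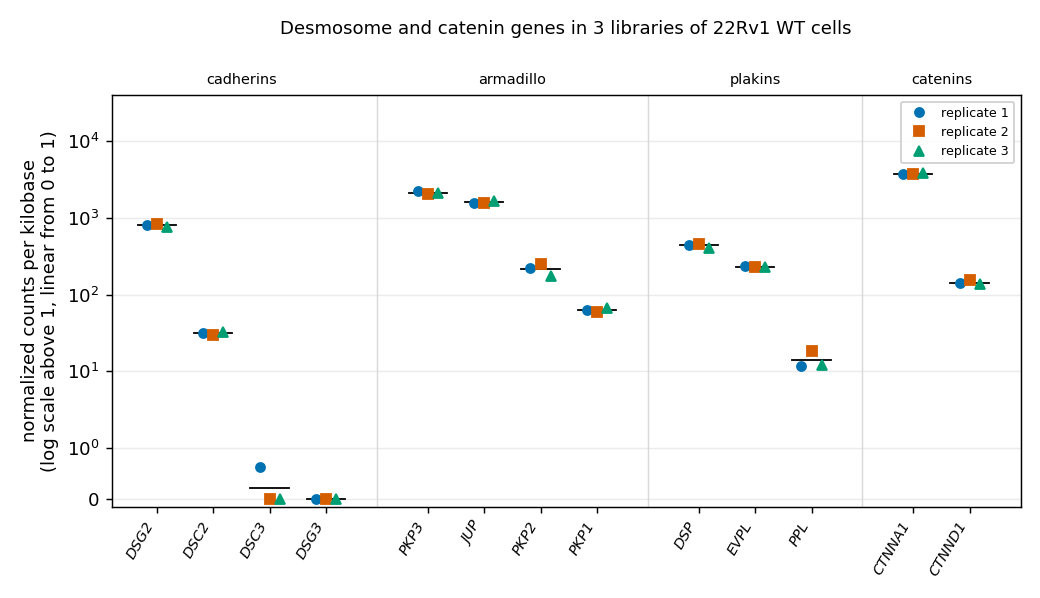
Level of the 13 desmosome and catenin genes in the 3 WT libraries, in normalized counts per kilobase on an axis that is logarithmic above 1 and linear from 0 to 1. Symbols mark replicates and the black bar the mean, with DSG2, PKP3, DSP and CTNNA1 the highest of their groups and DSG3 at 0.

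Of 7 claudins, the strand-forming proteins of the tight junction, 5 were expressed, led by CLDN7. CLDN7 measured 10195.8, 9957.0 and 10197.5 normalized counts, or 6561 ± 89.7 per kilobase (SD, n = 3, percentile 97.8), above KRT19. CLDN4 measured 6193.3, 5629.2 and 5942.3 normalized counts, or 3494 ± 167 per kilobase. CLDN3 measured 1854.3, 1667.1 and 1806.0 normalized counts, or 1394 ± 76.3 per kilobase.

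CLDN3 and CLDN4 are receptors of a clostridial enterotoxin and neighbours in the genome. CLDN12 measured 2374.9, 2692.8 and 2634.2 normalized counts, or 727 ± 47.9 per kilobase (SD, n = 3). CLDN1, a barrier claudin of the epidermis, measured 74.3, 60.1 and 85.8 normalized counts, or 21.3 ± 3.74 per kilobase. CLDN8 had 17, 7 and 24 reads and CLDN18, known from stomach and lung, 0, 7 and 1, both below 1 CPM.

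The order CLDN7, CLDN4, CLDN3, CLDN12 and CLDN1 per kilobase held with ranges apart at each step, with ratios of 1.88 ± 0.0676, 2.51 ± 0.0326, 1.93 ± 0.225 and 34.9 ± 7.61 (SD, n = 3). CLDN7 held 53.8 ± 0.59% of the summed level of the 7 listed claudins and CLDN4 28.6 ± 0.73%. CLDN11, outside the list and not in that sum, stood at 1241 ± 35.7 per kilobase, above CLDN12. With union exon lengths CLDN3 (1394) stood above CLDN4 (1260), so the order of these neighbours depends on the length. With those lengths the 4 ratios were 3.23 ± 0.116, 0.904 ± 0.0117, 3.66 ± 0.428 and 19.4 ± 4.22. Of the CLDN7 transcript, 17.4% lies over a same-strand gene without a row (ENSG00000262302).

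Among the other membrane proteins of the tight junction F11R was highest and OCLN lowest. F11R (JAM-A), an adhesion molecule of the immunoglobulin family, measured 3782.0, 3689.6 and 3808.8 normalized counts, or 811 ± 13.5 per kilobase (SD, n = 3), and 39.9% of its transcript lies over a same-strand gene without a row (ENSG00000270149). MARVELD2 (tricellulin), of the points where 3 cells meet, measured 2148.2, 2045.4 and 2207.5 normalized counts, or 482 ± 18.5 per kilobase. All 3 libraries put the 2 genes in this order, with a ratio of 1.68 ± 0.0375.

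OCLN (occludin) measured 506.4, 491.7 and 486.5 normalized counts, or 80.1 ± 1.67 per kilobase (SD, n = 3), and its relative MARVELD3 760.0, 754.9 and 792.0, or 264 ± 6.90 per kilobase. Among these proteins of the MARVEL family MARVELD2 exceeded OCLN 6.03 ± 0.278 times and MARVELD3 1.83 ± 0.0393 times, or 9.05 ± 0.417 and 3.28 ± 0.0705 times with union exon lengths. The ranges of all 4 membrane proteins were apart.

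Among the scaffolds CGN (cingulin), which links the junction to actomyosin, was highest. It measured 6182.2, 6447.6 and 6048.6 normalized counts, or 1221 ± 39.8 per kilobase (SD, n = 3). TJP1 (ZO-1), which binds claudins and occludin to actin, measured 3040.2, 3132.0 and 2920.8 normalized counts, or 422 ± 14.7 per kilobase. TJP3 (ZO-3) measured 1256.2, 1104.4 and 1059.7, or 371 ± 33.5 per kilobase.

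CGN exceeded TJP1 2.90 ± 0.0269 times and held 60.6 ± 1.16% of the summed scaffold level per kilobase. The ranges of TJP1 and TJP3 overlapped, but within each of the 3 libraries TJP1 stood above TJP3. Their ratio was 1.14 ± 0.0944 (SD, n = 3, lowest 1.04, highest 1.21). It fell to 0.936 ± 0.0773 with union exon lengths, so the order of these genes depends on the length used. Of the polarity genes, CRB3, the epithelial Crumbs protein of the apical membrane, measured 1302.0, 1317.6 and 1148.6 normalized counts, or 1157 ± 86.0 per kilobase. PARD3, the scaffold of the PAR complex, measured 1283.1, 1404.8 and 1280.1, or 222 ± 11.9 per kilobase. Near-equal normalized counts of these genes thus stood 5.22 ± 0.328 times apart per kilobase.

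**Figure D4:**
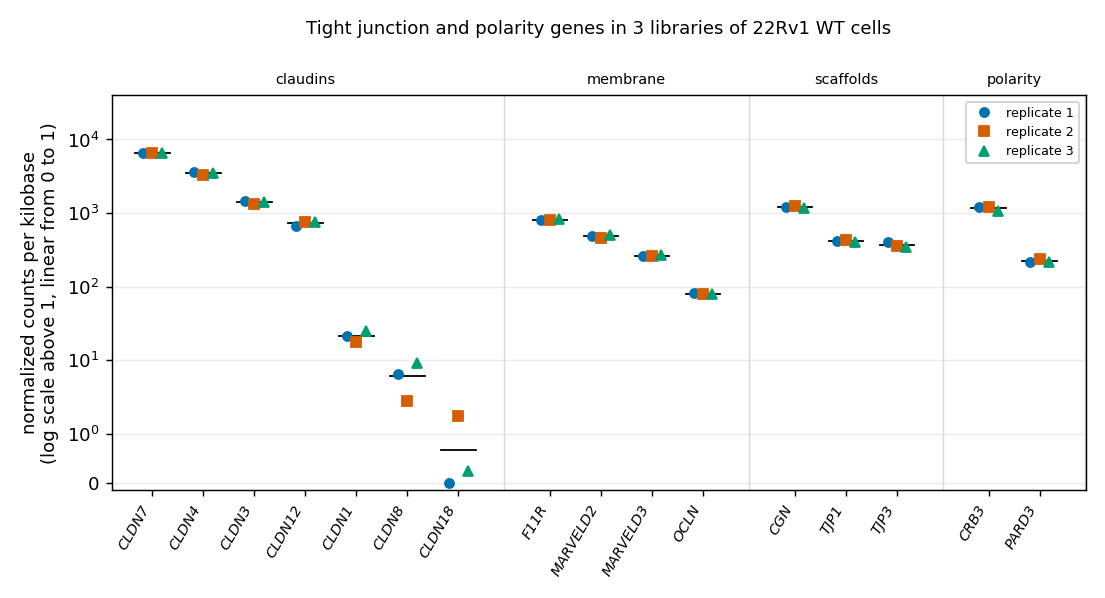
Level of the 16 tight junction and polarity genes in the 3 WT libraries, in normalized counts per kilobase on an axis that is logarithmic above 1 and linear from 0 to 1. Symbols mark replicates and the black bar the mean: CLDN7 is highest, CLDN18 lowest, and TJP1 and TJP3 overlap.

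Across families, the 33 members with a mean of at least 10 reads were ordered by level per kilobase. Of the 32 neighbour pairs in that order, 20 had ranges that did not overlap and 25 kept their order in all 3 libraries. Pairs that overlapped included CGN with CRB3, F11R with DSG2, DSP with TJP1, EVPL with PARD3, PARD3 with PKP2, and KRT10 with CTNND1. DSP, TJP1 and TJP3 in particular formed a run without gaps.

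Genes of the same structures outside the list were set beside these. Of 5 further desmosome genes 2 were expressed, PERP, a membrane protein of the desmosome, at 1467 ± 27.7 and PKP4 at 431 ± 11.3 normalized counts per kilobase (SD, n = 3). Of 11 further adherens junction genes 10 were expressed, among them CTNNB1 (beta-catenin) at 3736 ± 83.4 and CDH1 (E-cadherin) at 2263 ± 8.31 per kilobase. CTNNA1 and CTNNB1, direct binding partners, had a ratio of 1.02 ± 0.0218, with CTNNA1 below CTNNB1 in 1 library and above it in the others, and of 1.39 ± 0.0298 with union exon lengths. VCL (vinculin) stood at 923 ± 11.5, AFDN (afadin) at 707 ± 40.4 and NECTIN1 at 632 ± 33.5 per kilobase.

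Of 16 further claudins 3 were expressed, CLDN11 at 1241 ± 35.7, CLDN15 at 402 ± 18.6 and CLDN23 at 55.4 ± 11.3 normalized counts per kilobase (SD, n = 3). CLDN11 is the claudin of myelin and of Sertoli cells, and CLDN7 exceeded it 5.29 ± 0.0813 times. Of 20 further tight junction and polarity genes 17 were expressed, with LSR, of tricellular contacts, at 1532 ± 110, the kinase gene PRKCI at 636 ± 28.7, PARD6A at 622 ± 32.1 and PALS1 at 291 ± 12.1 per kilobase.

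Of 11 regulators of the epithelial state 9 were expressed. The splicing regulators ESRP2 and ESRP1 stood at 1191 ± 25.9 and 1025 ± 27.8, and the transcription factors EHF, GRHL2 and ELF3 at 1081 ± 29.1, 616 ± 16.5 and 377 ± 19.5 normalized counts per kilobase (SD, n = 3). TP63 was at 0 reads and GRHL3 at 3, 5 and 7.

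The libraries themselves were compared gene by gene, since replicate spread was the only contrast that could be tested. By a chi-square test of homogeneity with Benjamini-Hochberg adjustment over 14646 genes, 21 of 33 tested members differed between the WT libraries, beside 41.9% of all genes tested. Among genes of at least 300 reads, where the test has most power, 19 of 28 members (67.9%) differed beside 45.5% of all such genes, while the median coefficient of variation was 4.38% for the members and 4.14% for all. When the dispersion that edgeR estimated from these same libraries was added to the test, 0 of 33 members and 0.348% of all genes differed. That dispersion already holds the spread being tested, so few calls were bound to follow and no conclusion is drawn from them. At an unadjusted p under 0.05 of the chi-square test with the dispersion, the members were 3 (KRT18, KRT10 and PKP2), against 22 by counting error alone. The share of all tested genes at that unadjusted threshold is not given here, so these 2 counts are not read as a result about the members. Without replicate 1 the chi-square test called 20 members, without replicate 2 it called 13 and without replicate 3 it called 11. The share of all tested genes called in these fits was 27.0%, 22.7% and 23.5%.

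The expressed members with the widest ratio of highest to lowest library were PPL (1.58), KRT10 (1.52), CLDN1 (1.43) and PKP2 (1.41). PPL and PKP2 were highest in replicate 2, as was KRT10, while CLDN1 was highest in replicate 3. By the chi-square test with the edgeR dispersion added, the adjusted p was 0.124 for PKP2 and 0.633 for KRT18. That dispersion was estimated from these same libraries, so these values do not show that either gene was alike between libraries. None of the 4 tight junction membrane proteins differed by the chi-square test without that dispersion, beside 41.9% of all genes tested that did. By that test MARVELD2 came nearest the threshold, with an adjusted p of 0.068. The coefficients of variation of the 4 genes ran from 1.66% (F11R) to 3.84% (MARVELD2).

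Some values are uncertain because related genes share sequence. KRT8 matches the pseudogene KRT8P3 over 81.2% of its length at 97.1% identity and KRT19 matches KRT19P1 over 86.4% at 90.6%. The search covered annotated transcripts at 90% identity or more, so other copies, including any of KRT18, could have been missed. KRT6A matches KRT6C over 99.4% at 95.4%, and KRT14, KRT16 and KRT17 match pseudogenes, and KRT14 and KRT17 each other, at 90% or more. How reads that map to several places were counted is not given in the sources used here, so the 0 reads of KRT6A, KRT14, KRT16 and KRT17 hold for reads that were assigned. KRT5, which had no such copy, was also at 0.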

How the data were processed

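RNA-seq of 3 22Rv1 WT libraries was used. Total RNA was extracted with TRIzol and sequenced as 150-base read pairs. The authors aligned reads with HISAT2 to GRCh37 (hg19), counted them per gene with HTSeq on a GENCODE annotation and normalized them with DESeq2. The GENCODE release and strandedness are not given in the sources used here. Each deposited value is a signal, the reads of a gene over the size factor of its library, rounded to 1 decimal. All values above 0 came out as whole reads (100% in each library, within rounding, a tolerance of 0.05), so reads were recovered from them. Tests used these reads, as the design foresaw for normalized files.

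Adjacent rows identical in all 3 libraries were merged (29000 rows, 1976 merged, 27024 genes). 5 members (CLDN7, KRT20, MARVELD2, OCLN and TJP1) had a repeated row. CLDN12 stood on 2 rows, and the second (0, 0 and 1 reads) was not used. Symbols, exons and lengths came from GENCODE 44 on GRCh37, which matched 86.1% of rows. CPM used TMM library sizes (edgeR 4.0.16, R 4.3.3). Expressed meant at least 1 CPM in all 3 libraries. Spread was tested by chi-square where the mean reached 10 reads (scipy 1.17.1), with Benjamini-Hochberg adjustment over all of them and a threshold of 0.05. Copies of a transcript at 90% identity or more over 25% or more of its length were found with minimap2 2.31. Scripts were tested on simulated data. Alternatives were DESeq2 1.42.0 size factors, total reads, other minimums, union exon lengths, other keratin lists, an added dispersion and leaving out each library.

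The named genes are all 44 members and, of each further list, up to 5 expressed genes with the highest level per kilobase, and TP63. KRT81, GRHL3 and other genes outside that rule, apart from the cell type markers, were named after their values were seen. Some listed genes are not reported here. The members and all lists were chosen with earlier results of these data known.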

Additional observations from a re-analysis of the deposited data

How the results depend on the processing

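With KRT5 and KRT14 as the basal list, the luminal over basal log2 ratio of 11.29 moved to at least 13.17 (the lowest library). The ratio was 7.14 when KRT6A, KRT10, KRT13 and KRT16, from outside the basal list, were added to the 4 basal keratins. It stayed within its spread with union exon lengths (11.58), no division by length (11.21), a longer luminal list (11.60) and unmerged rows, and ran from 11.13 to 11.54 without each library in turn. The count of 31 expressed members was 27 at a minimum of 10 CPM and 31 under every other setting run. The share of all genes at 10 CPM is not given here, so the fall to 27 has no background beside it. The 21 members that differed between libraries were 20 to 24 with other scaling or minimums. The share of all genes called in those settings is not given here. The members that differed were 11 to 20 without each library in turn (22.7% to 27.0% of all genes, against 41.9%). With the edgeR dispersion added, a dispersion estimated from the same libraries, they were 0 (0.348% of all genes). Among expressed members, the mean level changed by at most 0.058% with another scaling (CLDN1) and by at most 15.3% without a library (PPL without replicate 2). Of 12 family shares recomputed with another length 11 moved, each a share of the listed members only. Without division by length KRT8 held 49.5% of the keratins, DSG2 92.2% of the cadherins and PKP3 82.8% of the plakophilins. In the same setting DSP held 72.8% of the plakins and CLDN7 49.4% of the claudins. With union exon lengths the shares of these same genes were 28.4%, 93.9%, 91.7%, 59.2% and 57.0%, in the same order. KRT8 no longer led with those lengths, since KRT18 held 41.6% of the keratins. No paired analysis was possible because only 1 group of libraries was analysed. Depth limits the members at 0 reads to under 3 reads per library.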

Other observations

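Some genes outside the comparisons are given as values. CDH3 (P-cadherin), a marker of basal cells in the prostate, measured 1760.3, 1708.6 and 1821.7 normalized counts, or 396 per kilobase, in libraries without a read of TP63, KRT5 or KRT14. CDH1 exceeded CDH3 5.72 ± 0.163 times per kilobase (SD, n = 3). Of the relatives of F11R, JAM2 measured 41.1, 37.2 and 42.5 normalized counts, and JAM3 had 1, 6 and 1 reads. CGNL1 (paracingulin), the relative of CGN, measured 153.3, 125.2 and 107.9 normalized counts, and CGN exceeded it 69.7 ± 11.4 times per kilobase. OVOL1 and OVOL2, transcription factors of the epithelial state, measured 253 ± 37.4 and 360 ± 43.3 normalized counts. These genes were chosen after their values were seen.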
